A study of Homo sapiens with 6 samples.

Results

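PLAG1-S bound 1572 sites at the ends of noncoding genes and away from coding gene ends, out of 21330 PLAG1-S peaks found in both clones on chromosomes 1 to 22 and X (21469 on all sequences). These peaks were chosen from the clone 4 list by position. Each overlapped a clone 5 PLAG1-S peak by 1 bp or more, lay within 1 kb of an end of a RefSeq gene that is not protein-coding, and lay more than 3 kb from both ends of every protein-coding gene. They made up 7.37% of the reproducible PLAG1-S peaks. A further 2433 of the 4005 reproducible peaks within 1 kb of a noncoding end were left out because a coding gene end was within 3 kb. At the 1 kb limit, the 3 members nearest to it, at 999, 999 and 998 bp, had clone 4 fold enrichments of 5.91, 7.16 and 2.59, and the 3 peaks just past it, at 1001, 1006 and 1011 bp, had 14.4, 3.3 and 7.92. At the 3 kb limit the members at 3001, 3005 and 3008 bp from a coding end had folds of 8.96, 7.9 and 6.13, and the peaks excluded at 2992, 2987 and 2979 bp had 5.21, 5.63 and 6.08.

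The study asked where these factors sit on chromatin by ChIP-seq, the sequencing of DNA that is immunoprecipitated with a protein. All cells were K562, an established human chronic myeloid leukemia line, and all carried both transgenes, Flag-tagged PLAG1-S and USF2, placed one after the other in a lentiviral construct. An anti-Flag and an anti-USF2 library came from each of clones 4 and 5, so that there were 2 libraries per factor, and each clone is 1 line. The 4 peak lists were called against the same merged inputs, cells without the transgenes were not analysed here, and the lists therefore describe binding under forced expression. No expression was measured in these libraries, so the identity of the cells could not be checked against markers. Per the labels, sequencing depth was 42.5 M reads of 50 bp per immunoprecipitated library. The lists held 37574 and 29889 PLAG1-S peaks and 9338 and 4369 USF2 peaks for clones 4 and 5, and the shorter USF2 list of clone 5 limits how often USF2 can be seen in both clones.

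PLAG1 is a zinc finger transcription factor that recognises a GC-rich, bipartite DNA sequence, and PLAG1-S is a shorter isoform of it. USF2 is a basic helix-loop-helix leucine zipper factor that binds the E-box CACGTG as a dimer, often at promoters and often together with USF1. Noncoding genes differ in how they are read: lncRNAs, miRNA precursors and most snRNAs are made by RNA polymerase II, tRNAs and other short structural RNAs by RNA polymerase III, and most snoRNAs and many miRNAs are cut from introns of a host transcript, so that the end of such a gene need not be a promoter. Pseudogenes are defective copies of genes, here of coding genes and of small noncoding RNA genes, and many of them are not transcribed.

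Promoters of lncRNAs that had a PLAG1-S summit inside them are shown first, with and without an E-box and with and without USF2, to let the position of the summit be seen against the sequence. Of the 223 summits in such windows, 82 had an E-box in the window. Each line gives the window from 250 bases before to 50 bases after an annotated start, from RefSeq on GRCh38.p14, written 5′ to 3′ on the strand of the gene, with every CACGTG in capitals. The word is a palindrome, so both strands are read at once. The first 4 had the E-box and a reproducible USF2 peak, and SNHG12 had reproducible USF2 but no E-box in the window. The clone 4 USF2 summit at SNHG12 was 286 bp from the PLAG1-S summit and outside the window. Its window therefore does not show the sequence under that USF2 summit. FIRRE had the E-box and a PLAG1-S peak but no USF2 peak, and LINC00620 and MALAT1 had PLAG1-S but neither USF2 nor the E-box.
LOC100134368, chr16:381991-382290, plus strand: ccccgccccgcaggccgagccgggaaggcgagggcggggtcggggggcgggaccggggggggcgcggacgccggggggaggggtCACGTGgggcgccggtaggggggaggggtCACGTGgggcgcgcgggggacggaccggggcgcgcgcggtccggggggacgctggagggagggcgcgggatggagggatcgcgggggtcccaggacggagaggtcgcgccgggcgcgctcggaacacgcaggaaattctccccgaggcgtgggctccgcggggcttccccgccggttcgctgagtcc
SNHG30, chr17:35567864-35568163, plus strand: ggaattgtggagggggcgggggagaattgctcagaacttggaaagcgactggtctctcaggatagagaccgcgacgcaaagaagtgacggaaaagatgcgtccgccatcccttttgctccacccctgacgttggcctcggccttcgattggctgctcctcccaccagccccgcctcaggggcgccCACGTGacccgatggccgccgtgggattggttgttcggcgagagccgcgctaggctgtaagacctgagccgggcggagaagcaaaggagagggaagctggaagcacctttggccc
LINC01970, chr17:82292765-82293064, minus strand: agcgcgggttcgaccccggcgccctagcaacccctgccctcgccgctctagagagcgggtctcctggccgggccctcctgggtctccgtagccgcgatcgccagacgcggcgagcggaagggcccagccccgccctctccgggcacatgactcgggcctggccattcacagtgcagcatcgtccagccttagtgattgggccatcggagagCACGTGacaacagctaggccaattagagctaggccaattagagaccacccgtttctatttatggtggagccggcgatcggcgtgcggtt
NORAD, chr20:36050911-36051210, minus strand: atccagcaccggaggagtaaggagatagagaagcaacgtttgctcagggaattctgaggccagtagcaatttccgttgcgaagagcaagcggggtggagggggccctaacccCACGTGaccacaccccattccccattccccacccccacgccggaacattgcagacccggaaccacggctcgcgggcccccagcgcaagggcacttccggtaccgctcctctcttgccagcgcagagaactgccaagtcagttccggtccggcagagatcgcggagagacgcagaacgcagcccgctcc
SNHG12, chr1:28581824-28582123, minus strand: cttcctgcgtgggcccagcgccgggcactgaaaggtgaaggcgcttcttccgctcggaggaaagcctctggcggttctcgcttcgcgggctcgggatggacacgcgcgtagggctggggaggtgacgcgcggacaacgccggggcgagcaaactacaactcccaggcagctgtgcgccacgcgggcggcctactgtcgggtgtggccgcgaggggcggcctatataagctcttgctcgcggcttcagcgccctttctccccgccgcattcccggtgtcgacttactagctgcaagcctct
FIRRE, chrX:131830594-131830893, minus strand: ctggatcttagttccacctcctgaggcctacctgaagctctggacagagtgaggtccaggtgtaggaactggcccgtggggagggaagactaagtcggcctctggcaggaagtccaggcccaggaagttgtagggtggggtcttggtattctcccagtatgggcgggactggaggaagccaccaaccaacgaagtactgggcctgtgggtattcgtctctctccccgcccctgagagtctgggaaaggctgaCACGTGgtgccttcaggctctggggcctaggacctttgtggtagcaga
LINC00620, chr3:13650471-13650770, plus strand: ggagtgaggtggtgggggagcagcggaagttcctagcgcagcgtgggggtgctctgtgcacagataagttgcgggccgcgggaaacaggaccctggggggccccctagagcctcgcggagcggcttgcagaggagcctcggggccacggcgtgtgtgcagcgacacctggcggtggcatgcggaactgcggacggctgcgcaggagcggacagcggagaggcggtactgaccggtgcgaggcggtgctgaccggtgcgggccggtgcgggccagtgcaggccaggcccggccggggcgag
MALAT1, chr11:65497488-65497787, plus strand: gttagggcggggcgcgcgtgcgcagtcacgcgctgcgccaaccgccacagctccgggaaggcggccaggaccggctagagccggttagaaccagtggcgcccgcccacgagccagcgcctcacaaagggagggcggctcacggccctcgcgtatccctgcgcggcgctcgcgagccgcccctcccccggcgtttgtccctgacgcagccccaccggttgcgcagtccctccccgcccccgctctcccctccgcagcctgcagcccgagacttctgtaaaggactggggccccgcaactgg

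Counted from the first base printed, the E-boxes of LOC100134368 began at bases 85 and 114 and its PLAG1-S summit was at base 91. In SNHG30 the E-box began at base 186 and the summit was at base 183. In LINC01970 they were at bases 212 and 173, and in NORAD at bases 113 and 132. In FIRRE the E-box began at base 253 and the summit was at base 254. The centre of the nearest E-box was thus 4, 5, 41, 17 and 1 bp from the summit in these 5 promoters.

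Over all promoters in the RefSeq table, 7.27% of 34991 windows held CACGTG, and of the 12836 lncRNA windows 5.42% did. The table held 796 windows for 693 of the 1576 noncoding genes with a member, all of them lncRNAs, and 13.9% of these windows held the E-box (95% Wilson interval 11.7 to 16.5). Of the 223 PLAG1-S summits inside such a window, counted with 1 window each, 36.8% had the E-box in it. The share was 72.2% where USF2 was reproducible (26 of 36, 56 to 84.2), 42.9% where USF2 was called in clone 4 only (15 of 35, 28 to 59.1) and 25.9% where neither clone had a USF2 peak (38 of 147, 19.5 to 33.5). The E-box was therefore found in promoters without a called USF2 peak too, at a higher share than over all lncRNA promoters. Those windows had a median GC content of 65%, against 50% over all lncRNA windows, and the part of GC content in this contrast was not tested.

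The same count at coding promoters with a PLAG1-S summit gave 84.8% with reproducible USF2 (535 of 631) and 13.1% with no USF2 peak (211 of 1614). Without USF2, noncoding promoters held the E-box more often than coding ones by 12.8 percentage points (95% Newcombe interval 6.15 to 20.6). With reproducible USF2 they held it less often by 12.6 points (difference -12.6, interval -29 to -0.26), an interval whose upper end is close to 0. The E-box centre lay a median of 8 bp from the PLAG1-S summit in the 26 noncoding promoters with USF2, within 50 bp in 25 of them, and 15.5 bp in the 38 without USF2, within 50 bp in 32. These intervals cover counting error only, and neighbouring windows and peaks are not independent samples.

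The bipartite PLAG1 consensus, searched on both strands, followed another pattern. It was in 27.1% of all windows and 18.3% of lncRNA windows, in 34.8% of the windows of genes with a member and in 40.8% of the windows with a summit. With no USF2 peak 47.6% of windows held it (70 of 147, 39.7 to 55.7), and with reproducible USF2 30.6% did (11 of 36, 18 to 46.9). At coding promoters with a summit these shares were 46.3% and 44.2%. The median GC content of the windows was 65% without USF2 and 63.5% with it, against 50% over all lncRNA windows, and its part in the count of a GC-rich word was not tested.

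The median enrichment of PLAG1-S at these sites was like that over all its reproducible sites. Fold enrichment is MACS2's ratio of immunoprecipitated fragments over the peak summit to the local background expected from the inputs. It cannot tell more cells bound at a site from more binding per cell. Members had a median fold of 6.29 in clone 4 (quartiles 4.63 and 9.48, range 1.71 to 42.1) and 5.64 in clone 5, against 6.4 and 5.7 over all reproducible peaks. Median width was 354 bp against 353 bp, and the median number of fragments over the summit was 32 on a background of 3.76. Members, which were 1572 of the 37574 peaks of the clone 4 list, took 1 of the 100 largest and 60 of the 1000 largest folds of that list. Only reproducible peaks could be members, and of those they were 7.37%, so the share of the whole list is not the measure for these counts. The log2 folds of the clones followed each other over the members (Pearson r = 0.81, n = 1572, from libraries that share their inputs), and 65.5% of members (1029) were higher in clone 4, as were 66.5% of all reproducible peaks. Clone 5 values are not independent for 116 members that overlap a clone 5 peak shared with another member.

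USF2 was at 161 members when a USF2 peak found in both clones had to lie within 100 bp. This was 10.2% (8.84 to 11.8), against 9.74% of all reproducible PLAG1-S peaks, a share near that background. By clone, 400 members (25.4%) had a clone 4 USF2 peak and 195 (12.4%) a clone 5 one, where 22.8% and 11.1% of all reproducible PLAG1-S peaks did. In 234 members (14.9%) USF2 was called in clone 4 alone, in 33 (2.1%) in clone 5 alone, in 5 in each clone without overlap, and in 1139 (72.5%) in neither. The members with reproducible USF2 had a median PLAG1-S fold of 16.4 in clone 4 and 12.3 in clone 5, and the others 6.02 and 5.48. Over the 161, USF2 itself had a median fold of 6.15 and 5.14. USF2 and PLAG1-S summits of clone 4 lay a median of 17 bp apart (quartiles 7 and 44), within 50 bp in 124 (77%). Across these 161 peaks the log2 folds of the factors had a Pearson r of 0.74 in clone 4, with local input background as a common part of each ratio.

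**Figure D1:**
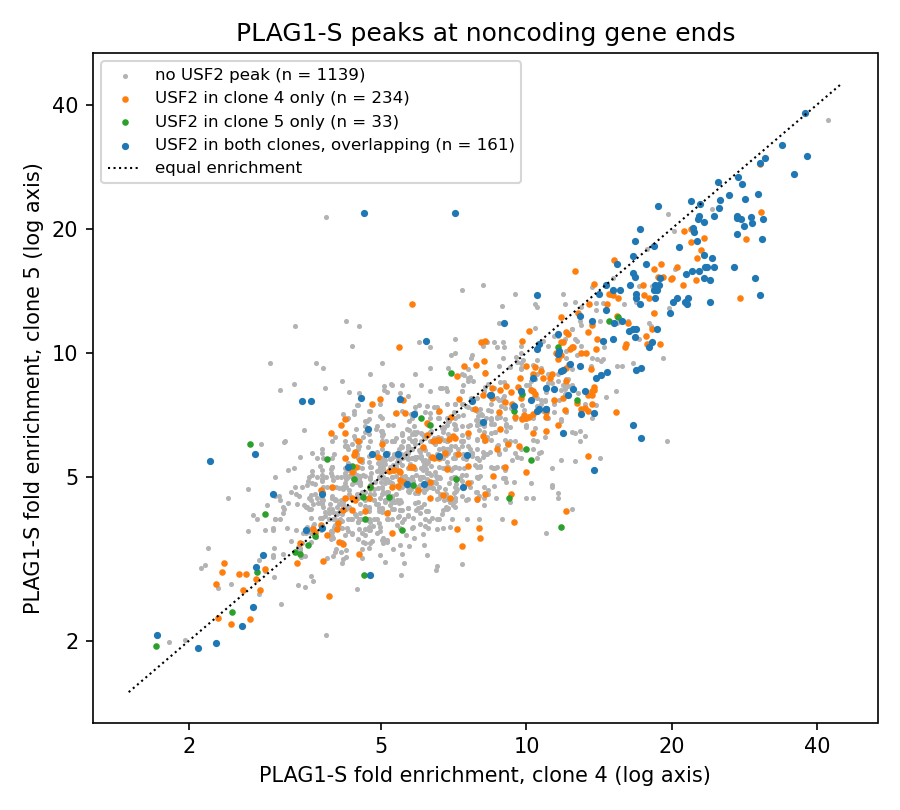
PLAG1-S fold enrichment of the 1572 peaks at noncoding gene ends in clone 4 (horizontal) and clone 5 (vertical), each on a log axis, with 1 point per peak colored by the USF2 peaks within 100 bp. Members with USF2 in both clones (161, blue) lie mostly at the upper right, with a median clone 4 fold of 16.4, and the 5 with separate USF2 peaks in each clone are not drawn.

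Compared with PLAG1-S peaks at coding genes, fewer members had USF2. Of the 8885 reproducible peaks within 1 kb of a coding gene end 14.1% had it, a difference of -3.87 percentage points (95% Newcombe interval -5.46 to -2.12). The difference had the same sign with any USF2 peak of the clone 4 list (-2.93, -5.22 to -0.53) and with any of the clone 5 list (-2.9, -4.62 to -1.03). It varied with the strength of the PLAG1-S peak, a variation that was not itself tested. When all reproducible peaks were put in 4 classes of equal size by clone 4 fold, the highest class (9.64 and over) had USF2 at 31.8% of members and 46.4% of coding end peaks, a difference of -14.7 points (-19.5 to -9.46). In the lowest class (below 4.74) the direction turned, with 4.46% against 2.52% (1.94 points, 0.197 to 4.4), and the intervals of the middle classes included 0.

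Compared with the 7950 reproducible peaks more than 3 kb from every gene end, members had USF2 more often, 10.2% against 6.19% (4.05 points, 2.55 to 5.73). In the highest fold class the shares were 31.8% and 20.2% (11.6 points, 6.8 to 16.7), and in the class from 6.4 to 9.64 the difference was 0.98 points with an interval from -0.385 to 3.21. These intervals treat peaks as independent and measure no spread between cultures. No test over samples was made, since with 2 clones per factor no exact permutation test can fall below 0.05.

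**Figure D2:**
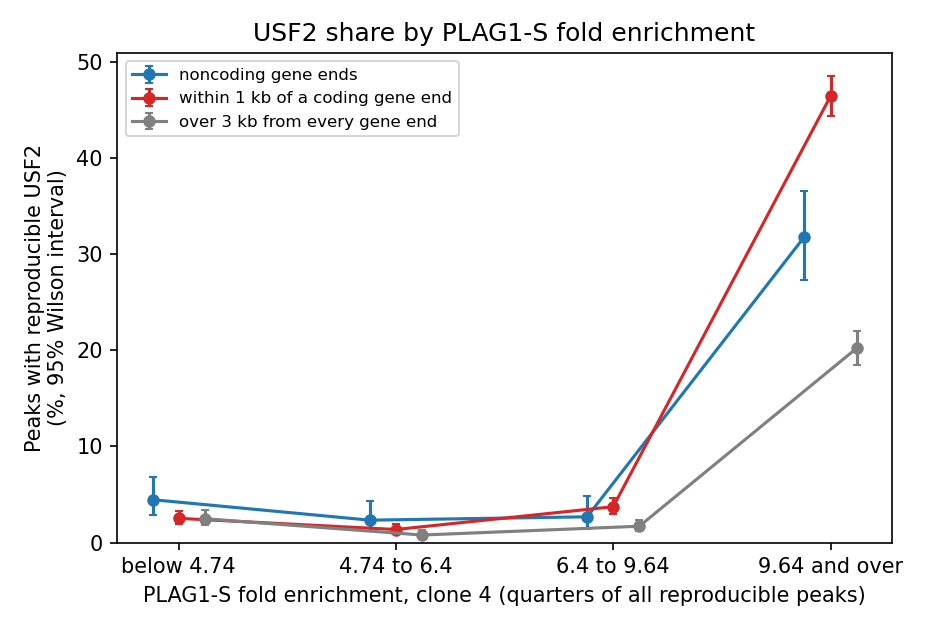
Share of PLAG1-S peaks with a reproducible USF2 peak within 100 bp (vertical, with 95% Wilson intervals) in 4 classes of clone 4 PLAG1-S fold (horizontal). In the highest class, members (blue, 31.8%) lie between peaks at coding gene ends (red, 46.4%) and peaks far from every gene end (gray, 20.2%).

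Most members, 1071, were at an end of a lncRNA gene. They touched 973 of 18177 lncRNA genes (5.35%), with a median fold of 6.59 in clone 4 and 5.73 in clone 5, and 109 of them (10.2%, 8.51 to 12.1) had USF2. Curated RefSeq models were 48.7% of the lncRNA genes with a member (474), and 36.6% of all lncRNA genes in the table. The nearest end belonged to a lncRNA at 1008 peaks. Of these, 564 were nearest to a 5′ end and 160 to a 3′ end, and for 284 the strand of the gene was unknown. At 5′ ends the summit lay a median of 244 bp from the end and within 100 bp in 151 (26.8%), and at 3′ ends the median was 586 bp with 8 (5%) within 100 bp. USF2 was at 62 of the 564 peaks at 5′ ends (11%, 8.67 to 13.8) and 8 of the 160 at 3′ ends (5%, 2.56 to 9.56), a difference of 5.99 points (0.88 to 9.75). With any USF2 peak of the clone 4 list the shares were 26.2% and 13.8%, and with any of the clone 5 list 13.1% and 6.25%. At 5′ ends 320 summits (56.7%) were upstream of the start or on it.

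**Figure D3:**
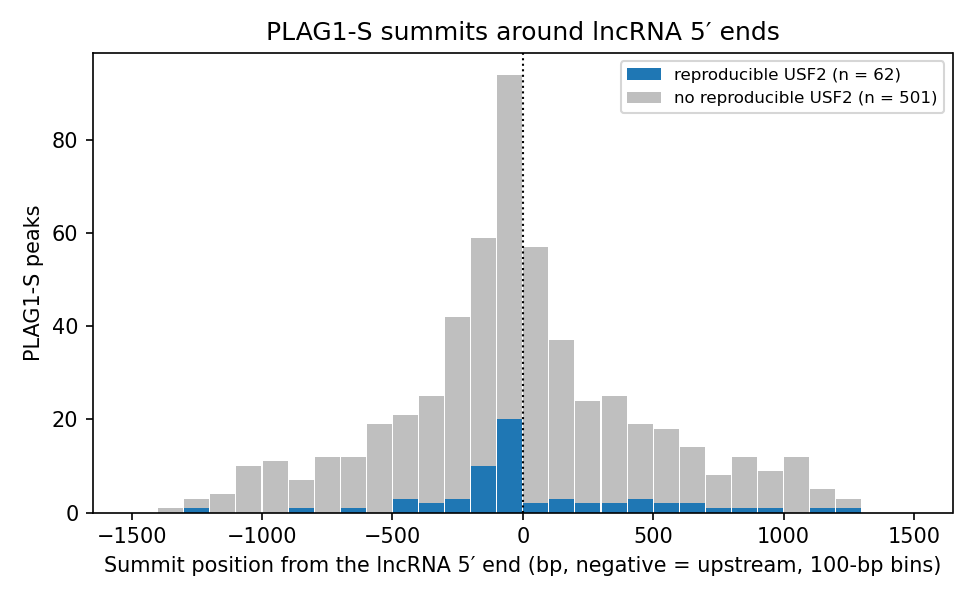
Number of PLAG1-S summits in 100-bp bins of distance from the nearest lncRNA 5′ end (horizontal, negative values upstream), split into peaks with (blue, 62) and without (gray) reproducible USF2. The tallest bin, from 100 bp upstream to the start, holds 20 peaks with and 74 without USF2, and 1 summit lies beyond the bins drawn.

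The strongest lncRNA member was at LOC105375782 on chromosome 8, an uncharacterized gene. Its PLAG1-S folds were 42.1 in clone 4 and 36.7 in clone 5, with 178 fragments over the clone 4 summit, and neither clone had a USF2 peak there. The next 4 all had USF2 in both clones. LOC105373042 (chr22:41381099-41381981) had PLAG1-S folds of 38.2 and 30 and USF2 folds of 23.9 and 15.4. LOC100134368 (chr16:381278-382534) had 37.8 and 38.1 for PLAG1-S and the largest USF2 folds of any member, 28.2 and 20.9. EPC1-AS1 (chr10:32346097-32346876), antisense to the gene of a chromatin regulator, had 33.9 and 31.9, with USF2 at 8.74 and 8.79. SNHG30 (chr17:35567786-35568377), a snoRNA host gene, had 31.2 and 29.6, with USF2 at 16.3 and 11.3. Among members ranked by USF2, LINC01970 (24.9 and 26, USF2 16.1 and 13.4) and LOC105372817 (29.3 and 20.6, USF2 15.7 and 11) followed these. After LOC105375782, the strongest members with no USF2 were LOC124900648, near a 3′ end (24.2 and 22.3), and LINC00620 (20.3 and 16).

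Some of these strong lncRNA sites lay at an internal start of a coding gene. The gene table gives only the outer ends of each gene, and the RefSeq promoter windows cover 15812 of 19970 coding genes and list their other starts too. By these, 133 members (8.46%) were within 1 kb of another coding start, 3 of the 10 members with the largest folds among them and 6 of the 50 largest. The summit at LOC105373042 was 499 bp from a start of TEF, which encodes a PAR bZIP transcription factor. The summit at LOC100134368 was 103 bp from a start of PGAP6, that at EPC1-AS1 639 bp from a start of EPC1, and that at LOC105372817 462 bp from a start of WDR4, a tRNA methyltransferase subunit. USF2 was at 11 of these 133 members (8.27%) and at 10.4% of the other 1439. Altogether 476 members (30.3%) lay in the body of a coding gene, 33 of them (6.93%) with USF2, against 128 of the 1096 others (11.7%).

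Among the host genes of snoRNAs, 8 of 27 listed genes had a member (29.6%, against 5.35% of all lncRNA genes, predicted models included). Of the 6660 curated lncRNA genes 474 had a member. Of the listed genes 12 had a PLAG1-S peak but a coding end nearby, and 7 had no reproducible peak within 1 kb. Beside SNHG30, the largest fold was at SNHG5 (13.6 and 9.27, no USF2). SNHG15 (8.5 and 8.21) and one of the DANCR peaks (8.2 and 6.14) had USF2 in clone 4 alone, at 3.88 and 5.23. SNHG12 (5.65 and 4.8) had a USF2 peak of fold 6.45 in clone 4 that overlapped a clone 5 peak. SNHG11, EPB41L4A-AS1 and SNHG32 had folds from 4.15 to 6.87 in clone 4 and no USF2.

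Of 25 listed miRNA host genes, 24 were in the gene table. Of these, 5 had a member (20.8%, against 5.35% of all lncRNA genes, predicted models included), 2 had a peak near a coding end and 17 had no peak. MIRLET7A1HG, host of let-7 family miRNAs, had the largest (22.6 and 18.7), with USF2 at 9.8 and 6.99. DLEU2, host of the tumor suppressors MIR15A and MIR16-1, had a peak of 17.7 and 11 with a weak clone 4 USF2 peak of 3.58, and a second peak of 11.4 and 7.16 without USF2. MIR23AHG had 11.4 and 7.69 with USF2 in clone 4 alone (5.88). MIR17HG, host of an oncogenic miRNA cluster, had 8.46 and 7.87 with USF2 at 4.76 and 3.48, and MIR1915HG had 6.89 and 5.27 without USF2.

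Of 27 well-studied lncRNA genes, 5 had a member (18.5%, against 5.35% of all lncRNA genes, predicted models included). A further 5 had a peak near a coding end and 17 had none. NORAD, a cytoplasmic RNA that binds Pumilio proteins, had folds of 27.3 and 21.4 with USF2 at 6.15 and 5.51. FIRRE, a nuclear lncRNA of the X chromosome, had 13.2 and 7.5, and MALAT1, an abundant nuclear speckle RNA, had 9.97 and 6.68, both without a USF2 peak in either clone. NEAT1, the scaffold of paraspeckles, had 3 peaks with clone 4 folds of 11, 2.98 and 3.77 and clone 5 folds of 7.74, 4.55 and 4.55. The strongest was near a USF2 peak in each clone (4.11 and 5.48), but these did not overlap, so its USF2 was not reproducible. The weaker ones had reproducible USF2 with the same folds (3.57 and 5.48) and the same clone 5 PLAG1-S fold, so they may not be separate sites. PVT1 had a weak peak of 4.42 and 5.75 with USF2 in clone 4 alone (4.42).

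Pseudogene ends had 402 members, at 364 of 16664 pseudogenes (2.18%). Their median fold was 5.76 in clone 4 and 5.46 in clone 5, and 44 (10.9%, 8.26 to 14.4) had USF2. Among peaks whose nearest gene end was that of a pseudogene, the 5 strongest all had USF2, reproducibly in 4 of them. These were the site shared by LOC107984289 and RHEBP2 (30.5 and 13.8, USF2 13.8 and 20), PHF5AP7 (29.7 and 15.2, USF2 9.58 and 8.29), ZNF815P (27.3 and 21.2, USF2 11.7 and 7.64) and CHCHD2P1 (26.9 and 16.1, USF2 9.73 and 5.68). The largest fold within 1 kb of any pseudogene, 31.2, was that of the SNHG30 peak, which also lay near RPL39P32. ARF4P2 (30.6 and 22) had a USF2 peak of 8.77 in clone 4 alone. The summits of the factors in clone 4 were 0 to 11 bp apart in these 5. By symbol, 186 pseudogene peaks could be paired with a coding parent gene. The parent had its own PLAG1-S peak within 1 kb in 132 cases (71%), against 60.9% for the parents of all 8034 pseudogenes paired in this way. The first share counts peaks and the second counts pseudogenes. A pseudogene with several peaks, such as BCRP7, enters the first more than once, so the difference was not tested.

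A pseudogene family with many peaks, FAM86, was chosen after its values were seen. Of 12 FAM86 pseudogenes, which are copies in segmental duplications of a lysine methyltransferase gene, 10 had a member, against 2.18% of all pseudogenes. There were 19 peaks, with clone 4 folds from 3.79 to 28.5 (median 6.24). FAM86C1P peaks of 12.9 and 4.22 had the same clone 5 fold, 11.9, and FAM86C2P peaks of 13.9 and 4.48 both had 7.46. The 19 may therefore not all be separate reproducible sites. USF2 was reproducible at 2 of the 19 and in clone 4 alone at 6. For reference, 9.74% of all reproducible PLAG1-S peaks had reproducible USF2, and 14.9% of members had it in clone 4 alone. The strongest were at FAM86HP (28.5 and 18.9, USF2 6.05 in clone 4 alone), FAM86FP (27.9 and 25.6, USF2 4.91 and 5.32) and FAM86KP (26.3 and 24.1, USF2 4.95 and 4.79). The copies are alike in sequence, so the per-copy folds are uncertain.

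The ends of miRNA genes had 96 members at 90 of 1911 genes (4.71%), with median folds of 6.3 and 5.83, and 56 of the 96 were in the body of a coding gene. Reproducible USF2 was at 4 (4.17%, 1.63 to 10.2), and 23 (24%) had a USF2 peak in clone 4. Over all reproducible PLAG1-S peaks these shares were 9.74%, inside that interval, and 22.8%. MIR148A, the miRNA of a family that targets DNA methyltransferase and cholesterol uptake genes, stood well above the rest, with PLAG1-S folds of 30.8 and 18.9 and USF2 folds of 14.7 and 11.1. This summit was 1320 bp from the 5′ end of the hairpin. The other 3 with USF2, named after their values were seen, were at MIR4726 (13 and 7.09, USF2 4.6 and 4.1), MIR12126 (9.42 and 7.43, USF2 5.64 and 5.2) and MIR8078 (2.28 and 1.97, USF2 2.37 and 2.39). The next largest folds nearest to a miRNA were at MIR4274 (13.7 and 6.94) and MIR4740 (13 and 10), without USF2. A member within 1 kb of MIR202 had a larger clone 4 fold, 17.9, but its nearest gene end was not that of a miRNA.

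Mature sequences from RefSeq (GRCh38.p14) were used for 79 of these miRNA genes, and 5 seeds (bases 2 to 8) were shared by more than 1 of their 115 mature miRNAs. The strongest miRNA and the pairs of 3′ arm miRNAs (with hsa-miR-429) that share a seed are printed with the seed in capitals, to show which related miRNAs had PLAG1-S nearby.
hsa-miR-148a-3p: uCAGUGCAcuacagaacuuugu
hsa-miR-301b-3p: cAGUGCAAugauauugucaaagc
hsa-miR-130b-3p: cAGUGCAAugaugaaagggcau
hsa-miR-132-3p: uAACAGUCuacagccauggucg
hsa-miR-212-3p: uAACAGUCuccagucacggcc
hsa-miR-193a-3p: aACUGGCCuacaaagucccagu
hsa-miR-193b-3p: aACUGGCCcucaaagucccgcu
hsa-miR-200b-3p: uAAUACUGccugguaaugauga
hsa-miR-429: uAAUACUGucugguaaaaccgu

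These pairs were chosen for their shared seeds, and most are neighbours on a chromosome. MIR130B and MIR301B, adjacent on chromosome 22, had a single broad member of 9.3 and 8.03 with a USF2 peak of 2.51 in clone 4 alone. MIR132 and MIR212 on chromosome 17 had 3 members of 8.43, 6.32 and 4.74 in clone 4 and no USF2. Of the MIR200B, MIR200A and MIR429 cluster on chromosome 1, the MIR429 member had 9.34 and 7.52 with a clone 4 USF2 peak of 4.23, and that of MIR200A and MIR200B had 4.5 and 3.73 with none. MIR193A and MIR193B lie on different chromosomes, and their members had 5.66 and 6.51, and 4.72 and 7.22, without USF2.

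The 19 members at snoRNA ends touched 17 of 1196 genes (1.42%). Their clone 4 folds ran from 3.76 to 9.24, and the largest 3 belonged to copies of the U3 snoRNA, which guides rRNA processing. SNORD3I had 9.24 and 6.59, SNORD3D 8.83 and 8.11, and SNORD3B-1 8.69 and 5.83. USF2 was reproducible at 2 of the 19 (10.5%) and called in clone 4 at 8 (42.1%, 23.1 to 63.7). Over all reproducible PLAG1-S peaks these shares were 9.74% and 22.8%. Copies of the U3 gene are alike, so the share of reads each received is uncertain.

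Among the other classes, tRNA genes had members most often after rRNA genes (11 of 49, 22.4%). Of 443 tRNA genes 85 had a member (19.2%), against 4.03% of all 39124 noncoding genes, and without the limit on coding ends 29.1% had a reproducible PLAG1-S peak within 1 kb. Over genes of every type that share was 19.7%, over coding genes 40.2% and over lncRNA genes 14.3%. The 66 peaks at tRNA genes lay close to them, with a median of 164 bp from summit to tRNA end, 26 of them had more than 1 tRNA gene within reach, and 21 were on chromosome 6 and 19 on chromosome 1. Members reached 19 of 28 isotype names. By number, TRG and TRL, glycine and leucine tRNAs, led with 10 genes each, of 30 and 32, and of the 13 TRD genes for aspartate tRNAs 8 had a member. Several TRG, TRL and TRD genes were numbered copies in the same stretch of chromosome 1, where a single peak reached up to 4 tRNA genes. These gene counts are thus not counts of separate sites, and the values of single copies are uncertain. The folds of the 66 peaks had medians of 5.57 and 5.04, against 6.29 and 5.64 over all members. Their largest clone 4 fold, 27.8, was at a peak whose nearest gene end was not that of a tRNA. Of the peaks whose nearest gene end was that of a tRNA, the strongest were TRA-TGC4-1 (19.9 and 15.1, USF2 3.88 in clone 4 alone), TRI-TAT2-1 (19.6 and 21.7) and TRK-TTT5-1 (16.6 and 9.43), the latter pair without USF2. USF2 was reproducible at 6 of the 66 (9.09%) and called in clone 4 at 24 (36.4%) and in clone 5 at 8 (12.1%). Over all reproducible PLAG1-S peaks these shares were 9.74%, 22.8% and 11.1%.

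Of 28 listed small RNAs of splicing, processing and transport 9 had a member (32.1%, against 4.03% of all noncoding genes and 6.49% of snRNA genes). RNU6-1, a U6 spliceosomal RNA gene with a promoter outside the transcript, had folds of 35.9 and 27.1 with USF2 at 13.6 and 9.66 and its summit 289 bp from the nearer end. The Y RNA genes on chromosome 7, whose RNAs bind the Ro protein, had RNY5 at 13.9 and 8.67 (USF2 5.3 and 3.46), RNY1 at 11.7 and 10.1 (USF2 3.96 and 4.07) and RNY3 at 10.5 and 9.58 without USF2. The U1 gene RNU1-1 had 10 and 6.59, the variant U1 gene RNVU1-27 had 8.43 and 5.28, and C20orf181, of another class, had 15.1 and 13.8 with USF2 in clone 4 alone (3.41). RNU1-2, RNU6ATAC, VTRNA1-2 and VTRNA1-3 had clone 4 folds from 3.94 to 5.1, all without USF2. The 11 members at snRNA genes and the 11 at genes of other kinds had USF2 at 1 and 2 peaks.

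**Figure D4:**
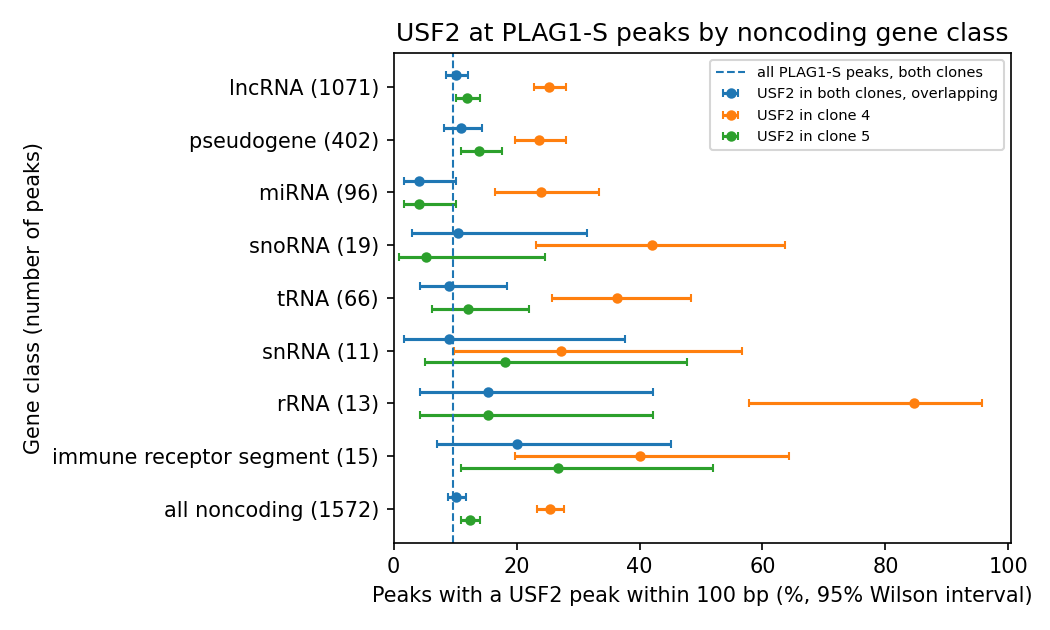
Share of PLAG1-S peaks with a USF2 peak within 100 bp by noncoding gene class (number of peaks in parentheses), in both clones with overlap (blue), in clone 4 (orange) and in clone 5 (green), with 95% Wilson intervals. The dashed line marks 9.74%, the share over all reproducible PLAG1-S peaks, which lies inside the blue interval of every class shown.

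The median local background was raised at rRNA genes and at immune receptor segments. It was 12.3 fragments at the 13 rRNA members and 14.3 at the 15 segment members, against 3.76 over all members, and the median clone 4 folds were 3.84 and 3.39. Among the sites named below, the background was 12.3 at RNA28SN2 and 15.6 at IGLV1-47, and from 2.8 to 4.29 at the others. At rRNA genes 11 of 13 members had a clone 4 USF2 peak and 2 a reproducible one, where 22.8% of all reproducible PLAG1-S peaks had a clone 4 one. Several of the 13 were neighbours on chromosome 1 that shared a clone 4 USF2 peak, so the 11 are not separate USF2 sites. The clone 4 summits of the factors were 713 bp apart at LOC124905435 and 384 bp at LOC124905434, both in that stretch, and 0 bp apart at RNA28SN2. Nearest to an rRNA gene, the largest folds were at RNA28SN2 (6.37 and 5.59, USF2 3.73 in clone 4 alone), LOC124905435 (6.32 and 4.44) and LOC124905434 (4.72 and 4.44). Nearest to a segment they were at IGLV1-47 (10.2 and 7.69, USF2 4.05 and 2.5), an immunoglobulin lambda segment on chromosome 22, IGLV8OR8-1 (8.78 and 5.68) and IGHE (8.17 and 6.11), the last pair without USF2. Copies of rRNA genes are near-identical, and their separate values are uncertain. On chromosome 22, where K562 carries an amplified stretch joined to chromosome 9, the median background was 8.56 over 106 members, their median fold was 4.82 and 19 (17.9%) had USF2. Over all chromosomes 20 members had a background above 20 fragments, with a median fold of 2.35 and reproducible USF2 at 5. The part of copy number in these values was not tested.

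Where several noncoding genes or several peaks met, values are shared. At 274 members the ends of 2 or more noncoding genes lay within 1 kb, and at most 4. The distance from a summit to the nearest noncoding end had a median of 341 bp over all members, with 312 (19.8%) within 100 bp and 973 (61.9%) within 500 bp. Members with reproducible USF2 were nearer, with a median of 257 bp and 27.3% within 100 bp, against 353 bp and 19% for the others.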

How the data were processed

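ChIP-seq peak lists of PLAG1-S (anti-Flag) and USF2 from K562 clones 4 and 5 were analysed as deposited, and the input libraries were not analysed here. Per the file headers, MACS2 was run by the authors on single immunoprecipitated libraries, with the inputs merged as control. The submitters' processing notes name FastQC, cutadapt, HISAT2 2.0.4, SAMtools, bedtools and HOMER, without their roles, and GRCh38/hg38. How reads with several placements were treated is not given in the sources used here. The deposited columns are a MACS2 score, the fold enrichment at the summit (a ratio) and the −log10 of the p-value and q-value. The PLAG1-S clone 4 and 5 lists are the 2 replicates, and clone number pairs the PLAG1-S and USF2 libraries, since both came from the same cell line. Clones may differ for reasons other than the factors, so that agreement between them measures only these samples.

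Gene ends were taken from a RefSeq table of GRCh38.p14, without strand. Strand and promoter windows came from RefSeq promoter and miRNA tables, and no genome sequence was used here. No sequence of chromosome 8 was read out. The numbers of summit fragments and of expected background fragments behind each fold were solved for from fold and −log10 p with a tolerance of 0.001, after a test on simulated data. USF2 counted as present when a reproducible USF2 peak (overlap of 1 bp) had its edge within 100 bp. Shares have 95% Wilson intervals, and differences have 95% Newcombe intervals and were called where these excluded 0. Intervals cover counting error only. Members, gene lists and tests were chosen with earlier results of these data known. Genes named by rule are those of the fixed lists and the gene nearest the summit of the members with the largest clone 4 fold, 5 for lncRNA and pseudogenes and 3 for every other class by nearest gene, the 5 with the largest USF2 fold and the 3 strongest without USF2. The FAM86 pseudogenes, the miRNAs with USF2 or a shared seed, MIR202, RPL39P32, the TRG, TRL and TRD isotypes and the coding genes with an internal start were named after their values were seen. The alternatives were a q-value limit, other overlap, distance and USF2 rules, each clone alone, the summit in place of the interval, and those added later. Computation used Python 3.11.15 with numpy 2.4.6, pandas 2.3.3, scipy 1.17.1 and matplotlib 3.10.9.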

Additional observations from a re-analysis of the deposited data

How the results depend on the processing

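The difference from coding gene ends and that from far peaks kept their direction under all alternatives run, and only the former lost its call, when USF2 in either clone counted (-1.99 points, -4.34 to 0.46). Counts and shares moved more. With a −log10 q of at least 10 there were 693 members, 8.8% of them with USF2, a median fold of 9.88, and 487 lncRNA, 166 pseudogene, 44 miRNA and 10 snoRNA peaks. With 1 clone alone the ranges were 2199 to 2844 members, 9.82% to 16% with USF2, a median fold of 5 to 5.17, and 1402 to 1876 lncRNA, 642 to 779 pseudogene, 142 to 146 miRNA and 20 to 36 snoRNA peaks. The lower share is that of clone 5 and the higher that of clone 4. The replicate block, which pairs the factors within a clone and averages the clones, gave 2522 members, 12.9% with USF2, a median fold of 5.08, 1639 lncRNA and 710.5 pseudogene peaks, and differences of -4.55 (-5.97 to -3.04) and 5.11 points (3.79 to 6.53). With 3 kb to a noncoding end there were 2508 members, 8.65% with USF2, and 1771 lncRNA, 664 pseudogene, 165 miRNA and 32 snoRNA peaks. With 500 bp there were 63 miRNA peaks. With 10 kb from coding ends there were 55 miRNA and 11 snoRNA peaks, and outside coding gene bodies 684 lncRNA and 40 miRNA peaks. Fewer sites can meet the stricter rules. With USF2 in either clone 27.5% of members had it, and clone 5 coordinates gave a median fold of 5.56.

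Chosen after seeing the data, leaving out chromosomes 9 and 22, backgrounds above 20 fragments or members near another coding start (1439 members, 10.4% with USF2, differences of -3.69 and 4.58 points) changed no call. Promoters that hold a summit had the E-box at 36.8% in place of 13.9%. Of 127 alternative values 91 stayed on the same side or within the allowed range. The clone 5 USF2 list is the shortest, at the same stated read depth, and the cause was not tested. Only 2 clones per factor were studied.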
